A study of Drosophila melanogaster with 32 samples.

Results

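The genes described here are 102 protein-coding genes of Drosophila melanogaster without a given name (symbol CG and a number) whose RNA was highest in testes of aly mutants. They were chosen on RNA-seq counts scaled to a library total of 1000000 (CPM): a mean of 3 CPM or more in aly testes and at least 4 times the mean of each of the 3 other groups. They are 102 of 6009 gene identifiers with a CG symbol (1.7%) and of 17559 identifiers in all, of which 254 (1.45%) met both thresholds under any name. The aly levels therefore chose the genes, and aly against the other groups is given as a description with no test.

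The study followed germ cells from proliferation to terminal differentiation, with 8 RNA-seq, 20 ATAC-seq and 4 CAGE samples. Each RNA-seq group had 2 libraries from testes of males under 2 days old, with 100 pairs of testes pooled per library. The bam group (bam -/-, grown at 22 C for 12 days, no heat shock) was labelled as enriched in spermatogonia. The 48h and 72h groups carried the same bam mutation and a bam transgene under a heat shock promoter; after 9 days at 22 C the flies received a shock of 30 min at 37 C, followed by 48 or 72 h at 25 C, giving young and mature spermatocytes per the labels. The aly group (aly -/-, grown at 25 C for 10 days, no heat shock) was labelled as mature spermatocytes. It was the only RNA-seq group without the bam mutation, so genotype, growth temperature and time of growth differ together between aly and bam, and the heat shock as well between aly and the 48h and 72h groups; these cannot be told apart. ATAC-seq, which marks open chromatin, covered these 4 conditions, a heat shock control at 48 h (bam -/-, shocked alike) and topi mutants (topi -/-, grown and labelled as the aly flies were).

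Bam is the switch that ends the amplifying divisions of spermatogonia, and bam mutant germ cells keep dividing without becoming spermatocytes. Aly is a subunit of tMAC, the testis-specific meiotic arrest complex that turns on a large programme of genes in primary spermatocytes, and aly mutant germ cells stop as spermatocytes. Topi is a zinc finger subunit of the same complex. A CG symbol means only that the gene has no assigned name, and most of these genes have no role that can be stated here.

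The libraries held 20064489 to 28984275 counts. In the order of replicate 1 and replicate 2, aly RNA measured 37.1 and 37.3 CPM in bam testes. It measured 206 and 209 CPM at 48h, 87.3 and 85 CPM at 72h, against 74.9 and 72 CPM in aly testes. The aly transcript was thus counted in its own mutant, and this gene is no check of that label; bam RNA was likewise counted in bam mutants, at 93.4 and 95.5 CPM. The paired libraries of a group differed at an unadjusted chi-square p below 0.05 for 7.14% to 7.5% of genes, little above counting error. Nothing in the labels says that they came from separate cultures, so p-values here measure only the spread between libraries, which may be technical.

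The RNA of the 102 genes made up a small part of every library, and mostly of the aly libraries. Their CPM summed to 2030 and 2021 in aly, against 165 and 165 in bam, 238 and 230 at 48h, and 196 and 191 at 72h. The median gene had a mean of 8.28 CPM in aly and of 0.409, 0.484 and 0.503 CPM in bam, at 48h and at 72h. The genes thus ranged from abundant to barely counted: 14 reached 30 CPM in aly and 5 reached 100 CPM, and those 5 held 41% of the summed aly level. Levels of different genes were not ranked per transcript length, so the order of genes is an order of reads. In the other groups 63 of the 102 stayed below 1 CPM on average, and 39 reached 1 CPM in at least 1 group. Whole testes were measured, so fewer cells of a type and less RNA per cell cannot be told apart.

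The highest of the other 3 groups was bam for 38 genes, 48h for 33 and 72h for 30; the remaining gene, CG11159, had 0 counts in all 3. The ratio of the aly mean to the highest other mean could be formed for 101 genes and ran from 4.02 to 192, with a median of 9.76. It was 10 or more for 48 genes and 50 or more for 8. The spread between the 2 aly libraries had a median coefficient of variation of 5.07% and a highest value of 28.1%, and the lowest count of any of these genes in an aly library was 53.

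**Figure D1:**
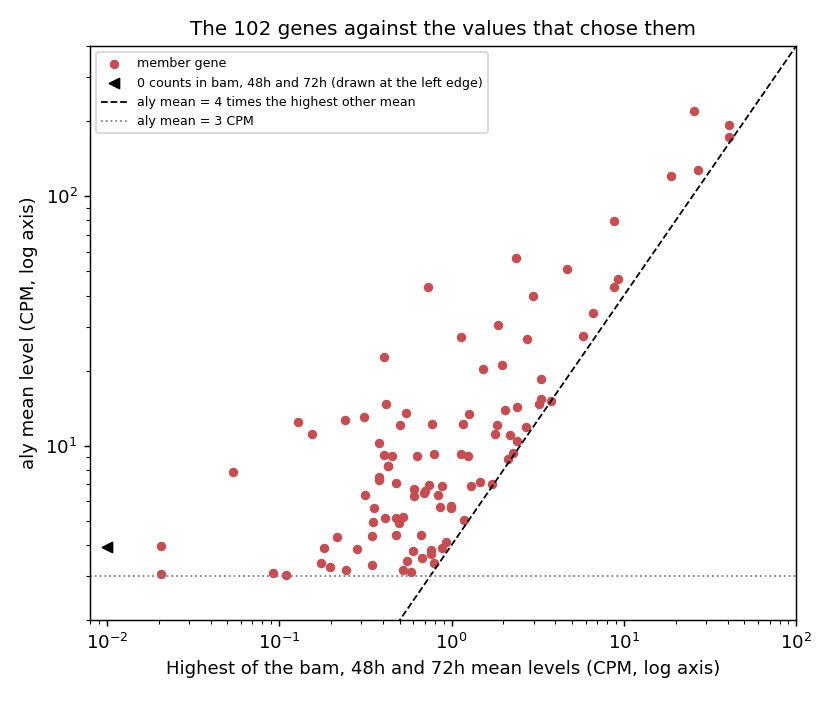
Mean level of each of the 102 genes in aly testes (vertical axis, CPM, log axis) against the highest of its bam, 48h and 72h means (horizontal axis, CPM, log axis), with the lines that chose the genes. The points reach from the line at 4 times, where CG17707 lies at 4.02, to CG11159 at the left edge with 0 counts outside aly.

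At the 4-fold limit CG17707 (ratio 4.02), CG12164 (4.09) and CG43901 (4.1) lay just inside, and CG11617 (3.98), CG6928 (3.93) and CG10486 (3.93) just outside. At the limit of 3 CPM in aly, CG14313 (3.05 CPM), CG43156 (3.07 CPM) and CG14088 (3.1 CPM) lay just inside, and CG3769 (2.91 CPM), CG10591 (2.87 CPM) and CG6048 (2.82 CPM) just outside. CG15701 and CG8032, with ratios of 4.13 and 4.23, were the next members above the 4-fold limit.

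Among the genes with a known kind of product, the most abundant was CG8032 (chromosome arm 3R, 8664115 to 8667772, dm6 as for all positions here), which carries the older name PAOX and encodes a polyamine oxidase, an enzyme of polyamine breakdown. Its level was 30.6 and 29.3 CPM in bam, 42.5 and 39.1 at 48h, 18.9 and 19.1 at 72h, against 173 and 172 in aly. The 4 groups did not overlap, and the lowest was 72h. CG8032 rose from bam to 48h by 0.26 ± 0.05 on the log2 scale (± standard error; edgeR quasi-likelihood test, Benjamini-Hochberg adjusted p = 1.64e-05) and fell from 48h to 72h by 0.77 ± 0.05 (adjusted p = 2.39e-14). At 72h it was lower than in bam, with a log2 change of -0.51 ± 0.06 (adjusted p = 1.44e-09).

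CG17568 (2L, 19179749 to 19181702), a C2H2 zinc finger protein, had 11 and 10.7 CPM in bam, 19.9 and 17.8 at 48h, 10.5 and 10.7 at 72h, against 119 and 120 in aly. Its bam and 72h libraries lay side by side, and 48h stood above both. It was higher at 48h than in bam (log2 change 0.60 ± 0.07, adjusted p = 7.93e-09) and lower at 72h than at 48h (-0.50 ± 0.07, adjusted p = 3.88e-07). Its 72h level against bam did not pass the test (0.11 ± 0.09, adjusted p = 0.266), and the sign of that difference depended on the scaling. The other zinc finger gene, CG2120, was counted at 0.309 to 0.742 CPM outside aly and at 3.24 and 2.99 CPM in aly.

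Among the members, 7 genes for proteases or protease homologs are described here, a grouping made after their values were seen. It is not a full count of such genes. CG30187, CG30371, CG31220 and CG4914 encode serine proteases and CG14088 a serine protease homolog, and the reference table gives each of these an SP or SPH name as a synonym. CG12374 and CG14820 encode metallocarboxypeptidases, enzymes that trim proteins from the carboxyl end. Their aly means ran from 3.1 CPM (CG14088) to 27.5 CPM (CG30187). CG31220 had 0 and 0.0417 CPM in bam, 0.27 and 0.483 at 48h, 0.183 and 0.33 at 72h, against 9.57 and 11 in aly. Its bam libraries lay below all others, and the 48h and 72h libraries overlapped. Against bam, 3 of the 7 were higher, 3 lower and 1 not called at 48h. At 72h the same comparison gave 3 higher, 1 lower and 3 not called. Over all genes tested 44.1% were higher and 41.8% lower at 48h, and 46.1% higher and 43.6% lower at 72h, so these counts are no result about the proteases. CG31220 was higher at 48h (log2 change 3.65 ± 0.89, adjusted p = 0.000401) and at 72h (3.43 ± 0.98, adjusted p = 0.00188). CG14820 was higher at 72h (2.51 ± 0.64, adjusted p = 0.000576), and CG4914 lower at 48h (-1.62 ± 0.43, adjusted p = 0.000954). In a fit of the groups compared alone, CG31220 and CG14820 had too few counts to be tested.

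Other members act in lipid metabolism or transport. CG1441 and CG4770 encode fatty acyl-CoA reductases, which turn fatty acids into fatty alcohols, CG7367 a lipase, CG13284 a steroid dehydrogenase-like enzyme and CG9270 an ABC transporter. CG1441 was nearly level outside aly, at 0.907 to 1.24 CPM, and measured 4.68 and 5.44 CPM in aly. CG4770 had 0 and 0.0417 CPM in bam, 0.232 and 0.138 at 48h, 0.32 and 0.371 at 72h, against 3.29 and 3.34 in aly. The 4 groups of CG4770 did not overlap, and it was higher at 72h than in bam (log2 change 3.84 ± 0.90, adjusted p = 0.000225), though too few counts remained to test it in a fit of those groups alone. The transporter gene CG9270 rose from 0.309 and 0.207 CPM at 48h to 0.823 and 0.701 CPM at 72h (log2 change 1.88 ± 0.45, adjusted p = 0.000327). Its aly libraries had 3.44 and 4.19 CPM. CG9270 overlaps CR33319, which had means of 32.1 CPM at 48h, 77 at 72h and 43.6 in aly. The reads of these genes cannot be told apart here. CG3339, a dynein heavy chain gene with the synonym DHC5, had 0.0464 and 0.0417 CPM in bam, 0.811 and 0.587 at 48h, 1.33 and 1.28 at 72h, against 7.28 and 6.51 in aly. Dynein heavy chains are the motor subunits of dynein. The groups of CG3339 did not overlap, and its level at 72h was above bam (log2 change 4.88 ± 0.54, adjusted p = 7.14e-10). CG3339 overlaps asRNA:CR44287, which had means of 0 CPM in bam, 0.411 at 48h and 16.7 at 72h. Reads of this pair cannot be told apart here either.

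No role is stated here for the remaining genes with the highest aly means. CG33111 (3R, 23801714 to 23819237) had 25.1 and 26 CPM in bam, 15.2 and 14.1 at 48h, 9.65 and 10.6 at 72h, against 221 and 219 in aly. It stepped down from bam to 72h without overlap, and aly stood above all. Its change from bam was -0.99 ± 0.06 at 48h (log2, adjusted p = 7.17e-16) and -1.19 ± 0.07 at 72h (adjusted p = 1.2e-16). CG33111 shares its span with eIF4G2, which had a mean of 381 CPM in aly.

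CG12817 (3R, 10223440 to 10224725) had 0 counts in both bam libraries, 39.5 and 37.4 CPM at 48h, 42.3 and 39.5 at 72h, against 192 and 192 in aly. It was absent from the bam counts and present in every other library. At 72h its level was at least 621-fold that of bam, taken against 3 counts over the bam group (1883 counts against 0, adjusted p = 3.65e-30), and it was also higher at 48h (adjusted p = 7.11e-29). CG30395 (2R, 21765489 to 21770196) behaved alike in order: 1.07 and 1.33 CPM in bam, 26.7 and 26.9 at 48h, 28.2 and 25.7 at 72h, against 127 and 126 in aly. Its 48h and 72h libraries overlapped in CPM, and both groups lay far above bam. In the edgeR test, which used TMM scaling and not library totals, CG12817 was higher at 72h than at 48h (log2 change 0.42 ± 0.05, adjusted p = 1.53e-09). So was CG30395 (0.33 ± 0.06, adjusted p = 3.29e-06). Its log2 change from bam was 4.28 ± 0.11 at 48h (adjusted p = 1.19e-25) and 4.61 ± 0.11 at 72h (adjusted p = 8.19e-27).

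CG13842 (3R, 22704254 to 22707278) had 0 and 0.125 CPM in bam, 2.9 and 2.48 at 48h, 4.34 and 4.95 at 72h, against 52 and 50.3 in aly. CG14431 (X, 6908277 to 6968829) had 0.603 and 0.208 CPM in bam, 1.97 and 1.55 at 48h, 3.25 and 2.72 at 72h, against 39.6 and 40.1 in aly. Both genes climbed at each step without overlap between groups. CG13842 rose from bam to 48h by 5.05 ± 0.42 (log2, adjusted p = 1.66e-12) and from 48h to 72h by 1.13 ± 0.15 (adjusted p = 8.04e-08). CG14431 rose by 1.95 ± 0.32 (adjusted p = 1.75e-06) and by 1.09 ± 0.19 (adjusted p = 6.18e-06). CG42346 (X, 22832399 to 22885541) had 4.22 and 3.92 CPM in bam, 8.77 and 8.8 at 48h, 5.94 and 5.24 at 72h, against 44.4 and 42.3 in aly, with 48h the highest of the 3 lower groups. Its 72h level was above bam by 0.60 ± 0.13 (log2, adjusted p = 8.03e-05).

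CG34460 (2R, 16826872 to 16827755) had 8.35 and 9.25 CPM in bam, 2.55 and 2.1 at 48h, 2.84 and 2.85 at 72h, against 80.4 and 79.1 in aly. CG15097 (2R, 18822188 to 18829699) had 8.82 and 9.71 CPM in bam, 6.84 and 7.25 at 48h, 4.21 and 4.17 at 72h, against 47.5 and 45.9 in aly. Bam was the highest of the lower groups for both. CG34460 was lower than in bam at 48h (log2 change -2.11 ± 0.13, adjusted p = 2.98e-16) and at 72h (-1.49 ± 0.13, adjusted p = 1.86e-12). CG15097 fell from bam to 72h by 1.01 ± 0.11 (log2, adjusted p = 1.61e-09).

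CG10132 (2L, 19518824 to 19525453) was flat outside aly, at 2.12 to 2.6 CPM in the 6 libraries, and had 54.6 and 58.3 CPM in aly. Its 72h level did not pass the test against bam (log2 change 0.05 ± 0.18, adjusted p = 0.796). CG10051 (2R, 19363641 to 19367294) had 0.325 and 0.292 CPM in bam, 0.155 and 0.138 at 48h, 0.594 and 0.866 at 72h, against 43.3 and 43.1 in aly. Its aly mean was 59.1 times its next highest mean. Its 72h level was above 48h (log2 change 2.62 ± 0.43, adjusted p = 1.96e-06) and above bam (1.39 ± 0.38, adjusted p = 0.00151). Without replicate 2 of 72h the difference from bam no longer passed (adjusted p = 0.0634).

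**Figure D2:**
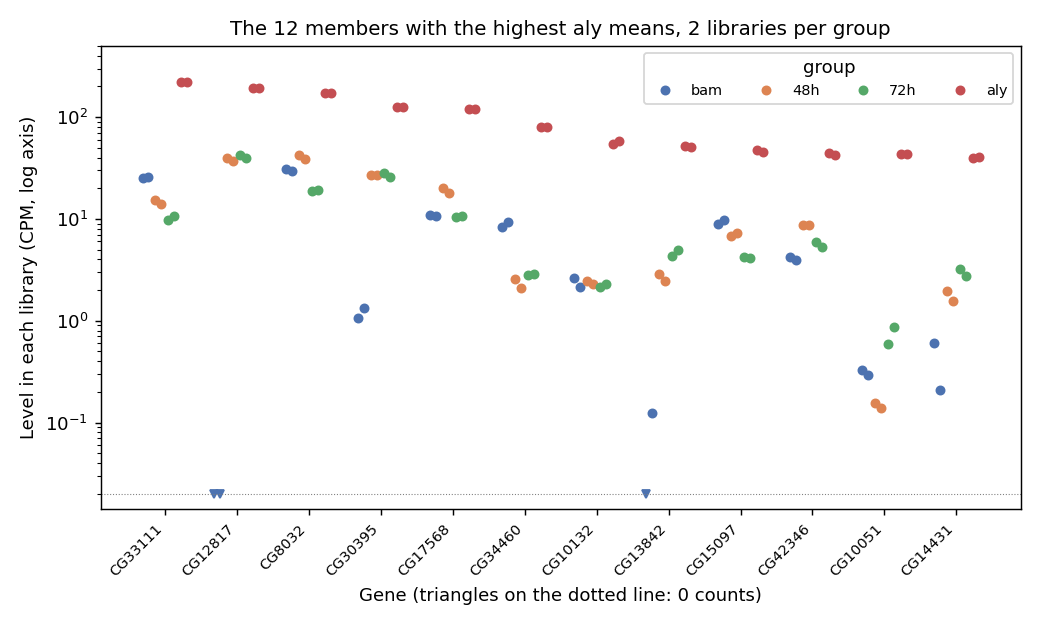
Level of the 12 genes with the highest aly means in each library (vertical axis, CPM, log axis; 2 points per group, triangles for 0 counts). The aly points lie together above all other groups for every gene, while the order of bam, 48h and 72h differs from gene to gene, as for CG33111 (highest in bam) and CG12817 (0 counts in bam).

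The genes with the largest ratios were barely counted outside aly. CG11159 had 0 counts in all 6 other libraries and 4.68 and 3.16 CPM in aly, which is at least 59.6-fold the bam level, 71.8-fold the 48h level and 60.3-fold the 72h level against 3 counts over each group. CG12115 had 1 count outside aly, in a 72h library, and 3.74 and 4.19 CPM in aly (ratio 192). CG43156 (ratio 149), CG5892 (146) and CG11380 (97) followed. Such ratios rest on few counts in the lower groups. CG11380, on the X chromosome, had 0.0417 to 0.165 CPM in the 6 libraries and 12.2 and 12.9 CPM in aly.

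The rule did not use differences between bam, 48h and 72h, but it held the aly mean to at least 4 times each of these means. Their comparisons ask whether genes chosen for high aly RNA also changed between the spermatogonia-enriched testes and those at later stages after Bam was supplied. All 102 were among the 13495 genes tested, but many passed the filter on low counts through their aly libraries and had few counts in the groups compared. At 48h against bam 32 were higher (31.4%, against 44.1% of all genes tested), 31 lower (30.4%, against 41.8%) and 39 not called. With so few counts a lower share of calls follows from how the genes were chosen, and nothing is read from it here or in the next comparisons. At 72h against bam 33 were higher (32.4%, against 46.1%), 27 lower (26.5%, against 43.6%) and 42 not called. At 72h against 48h 25 were higher (24.5%, against 45.9%), 13 lower (12.7%, against 34.3%) and 64 not called. The median log2 change was -0.18, 0.14 and 0.08 in that order, against 0.06, 0.06 and 0.16 over all genes tested. No call in any of the comparisons was made for 24 of the 102.

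The comparisons share libraries, so their counts are not separate evidence. The split at 72h against 48h depended on the scaling. With library size alone, 14 were higher and 23 lower, against 4824 and 6236 of all 13495 genes tested. The median change of all genes moved from 0.16 to -0.16. With no filter on low counts the split was 17 to 18, and 36 to 21 at 48h against bam. Over all 16528 genes then tested it was 5576 to 5736, and 6862 to 4987 at 48h against bam. With only the groups compared in the fit, fewer of the 102 genes had counts enough to be tested. Of 62 tested at 48h against bam 19 were higher and 23 lower (all genes: 5734 and 5369 of 12189). Of 59 tested at 72h against bam it was 18 and 19 (all genes: 6107 and 5738 of 12805). Of 66 tested at 72h against 48h it was 19 and 15 (all genes: 5299 and 5595 of 12798). DESeq2's Wald test gave 22 to 7 at 72h against 48h, and 6210 to 3956 over all genes. Without replicate 1 of bam, 16 rather than 31 genes were lower at 48h, and without replicate 1 or 2 of 48h, 20 or 19. Without these 48h libraries 16 or 13 rather than 25 were higher at 72h than at 48h. Without replicate 2 of 72h, 8 rather than 13 were lower.

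At 72h against bam the largest rises were those of CG12817, CG34393, CG6290 and CG13842. CG34393 had 0 and 0 CPM in bam, 2.24 and 1.81 CPM at 72h and 13 and 14.8 CPM in aly, so that 72h was at least 30.8-fold above bam (adjusted p = 2.09e-11). CG6290 had 0 and 0 CPM in bam, 0.503 and 0.33 at 72h and 5.88 and 7.57 in aly, at least 6.32-fold (adjusted p = 1.46e-05). CG6290 had too few counts to be tested in a fit of bam and 72h alone. It overlaps CG32548, which had means of 0.753 CPM in bam and 133 CPM at 72h, and the reads of these genes cannot be told apart here. For CG34393 and CG6290, every library outside bam held more than the bam libraries. CG13842 went from 3 to 215 counts over the 2 libraries, a ratio of 70.8 (95% exact counting interval 23.9 to 346, adjusted p = 1.36e-16). All 3 bam counts lay in replicate 2, and the log2 change was 6.18 with both bam libraries, 5.31 without replicate 1 and 9.97 without replicate 2.

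The largest falls were those of CG14313, CG13947, CG12826 and CG43249. They had few counts in bam and at 72h, entered the test through libraries of other groups, and could not be tested in a fit of bam and 72h alone, so their p-values are weakly grounded. CG14313 overlaps MED17, which had means of 109 CPM in bam and 39.7 CPM at 72h, and the reads of these genes cannot be told apart here. CG14313 went from 5 counts in bam to 0 at 72h, at least 1.67-fold lower (adjusted p = 0.016). Without replicate 1 or 2 of 72h it no longer passed (adjusted p = 0.0646 and 0.0748). CG13947 went from 16 counts to 1, a ratio of 16.2 (2.52 to 679, adjusted p = 0.000554), and its log2 change of -3.62 became -6.15 without replicate 1 of 72h and -2.69 without replicate 2. CG12826 went from 19 to 2 counts, a ratio of 9.62 (2.32 to 85.1, adjusted p = 0.000783), and its log2 change of -2.99 became -6.40 and -2.0 in the same way. CG43249 went from 18 to 2 counts, a ratio of 9.11 (2.18 to 81, adjusted p = 0.00201). The fall of CG43249 rested on replicate 2 of bam, which held 15 of the 18 counts, and did not pass without it (adjusted p = 0.26).

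**Figure D3:**
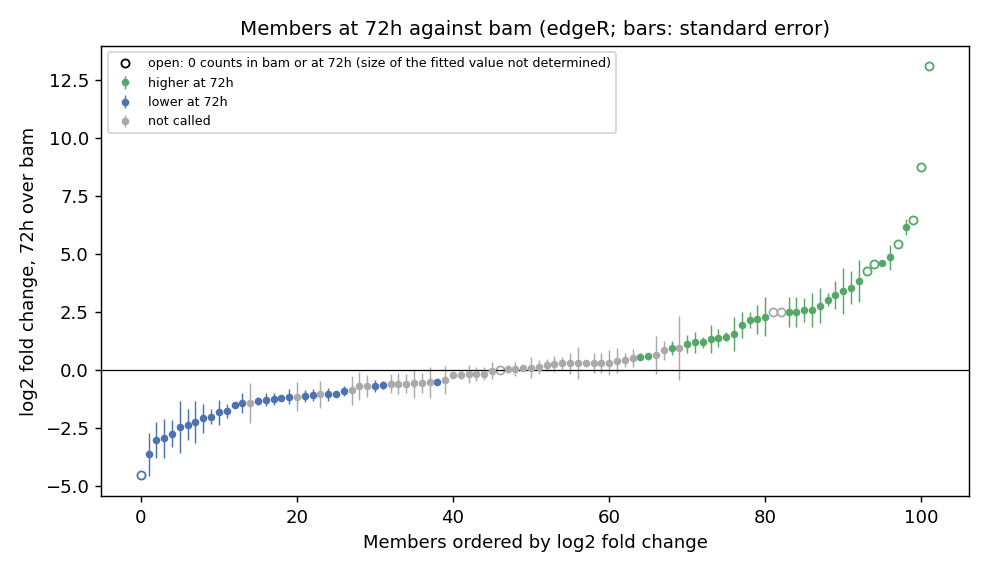
Log2 fold change of each of the 102 genes at 72h over bam (vertical axis; bars are standard errors, n = 2 libraries per group), ordered by size along the horizontal axis and coloured by call. The genes spread to both sides of 0. Of them 33 were called higher (32.4%, against 46.1% of all genes tested) and 27 lower (26.5%, against 43.6%). In a fit of bam and 72h alone only 59 had counts enough to be tested. Open circles mark genes with 0 counts in bam or at 72h, whose fitted size is not determined.

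Of the 102 genes, 29 were on 2R (28.4%, against 19.1% of the 3955 CG genes that reached 3 CPM in some group), 23 on 3R (22.5% against 23.7%), 20 on X (19.6% against 17.9%), 15 on 2L (14.7% against 20%) and 14 on 3L (13.7% against 18.9%). The Y-linked gene was CG40635, which had 0.0464 and 0.0417 CPM in bam, 0.348 and 0.242 at 48h, 0.64 and 0.412 at 72h, against 3.04 and 3.34 in aly. The genes were long: the median span was 3398 bp, against 1793 bp for the same 3955 genes, and 21 spanned 10 kb or more (20.6% against 8.22%). These shares are descriptions without a test.

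Another member lay within 10 kb of 9 members, in 6 pairs. No number expected for genes at large was worked out, so this is not called few or many. CG30043, CG30047 and CG30049 form a cluster on 2R with 349 bp between the first and last named and 258 bp between the last 2. CG30047 had 0.742 and 0.5 CPM in bam, 1.31 and 0.966 at 48h, 0.594 and 0.412 at 72h, against 26.8 and 27.8 in aly. CG30049 had 11.7 and 12.5 CPM in aly and CG30043 5.03 and 3.65 CPM, with neither above 0.657 CPM elsewhere. The other pairs were CG12506 and CG13947 on 2L (5156 bp apart), CG11380 and CG14627 on X (7806 bp) and CG14088 and CG14085 on 3L, which overlap. Among 298 other genes within 10 kb that reached 3 CPM in aly and overlapped no member, 3.02% met both thresholds. Of all 8583 identifiers at that aly level it was 2.96%. That share counts the 102 members, which the 298 genes leave out, so it is too high to set against 3.02%.

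The span of 47 members overlapped that of another counted gene, and for 26 of these the other gene had more counts in aly. The strand setting of the counting is not stated in these sources, so reads of overlapping genes cannot be told apart and the values of these members are uncertain. CG8032 overlaps p (mean 85.5 CPM in aly), CG17568 overlaps brat (62.8 CPM) and CG15097 overlaps Phb2 (152 CPM). Among the members, 2 overlapped a gene that itself met both thresholds, namely each other (CG14088 and CG14085).

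Open chromatin was read from the authors' peak lists, 1 per condition and therefore without replicates, as a peak within 100 bp of either end of the gene. Both ends were used because the strand of the genes was not given in the tables used here. A peak counted this way may belong to another gene, as mbc lies 80 bp from CG33111 and nahoda 124 bp from CG30187. Such peaks were not set apart. A peak was present at 29 members in bam (28.4%), 32 in the heat shock control (31.4%), 40 at 48h (39.2%), 36 at 72h (35.3%), 46 in aly (45.1%) and 39 in topi (38.2%). Among the 8374 genes with an aly mean of 3 CPM or more the shares were 78.2%, 79.9%, 87.2%, 87.7%, 83.3% and 79.9% in the same order. The members thus had fewer peaks at their ends in every condition, aly included. None of the 6 lists had a peak at the ends of 48 members (47.1%, against 8.37% of those genes), and all 6 did at 25 (24.5% against 73.5%). The authors' peak fold enrichment at the members had a median of 2.92 to 3.59 over the conditions, against 4.98 to 5.76 at the 8374 genes.

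The gap was present at both low and high aly levels. These comparison genes were matched on aly level alone, while the rule also held the members low in bam, 48h and 72h. Matching on aly level does not take that into account. Among the 60 members with aly means from 3 to 10 CPM, 36.7% had an aly peak, against 62.8% of 1587 genes in that range. Among the 42 members at 10 CPM or more it was 57.1%, against 88.1% of 6787 genes. Members below 1 CPM in bam, 48h and 72h had an aly peak in 33.3% of cases, and those that reached 1 CPM in one of these groups in 64.1%. A peak anywhere in the gene, a measure added after the data were seen, was found in aly at 60 members (58.8%, against 89% of the 8374 genes), in bam at 50 (49% against 85.2%) and in topi at 70 (68.6% against 87.4%). In none of the lists was any peak found in or beside 24 members (23.5% against 4.42%).

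**Figure D4:**
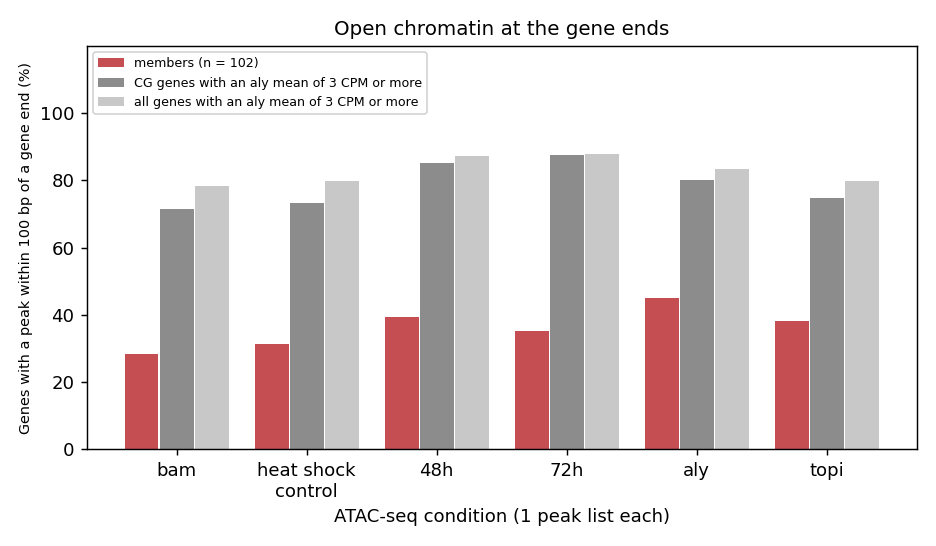
Share of genes with an ATAC-seq peak within 100 bp of a gene end (vertical axis, percent) in each of the 6 conditions, for the 102 members, for CG genes with an aly mean of 3 CPM or more and for all genes at that level. The members lie between 28.4% and 45.1%, below both other sets in each condition. Their highest share here is that of aly, but with the peak summit in the window it was that of 48h (28 members against 26) and with a peak anywhere in the gene that of topi (70 against 60).

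A peak in aly and in neither bam nor 72h was found at 11 members (10.8%, against 1.56% of the 8374 genes): CG12111, CG13947, CG14313, CG15923, CG2120, CG30049, CG30187, CG30371, CG30395, CG42579 and CG9782. At 7 of them (6.86% against 0.645%) aly was the only list with a peak. In members at 3 to 10 CPM the share was 10% (6 of 60), against 2.71% of 1587 genes at that level. At 10 CPM or more it was 11.9% (5 of 42), against 1.3% of 6787 genes. The opposite case, a peak at 72h and none in aly, was found at 2 members (1.96% against 6.48%), CG33468 and CG42249. Fewer members had a bam peak (28.4% against 78.2%) or a 72h peak (35.3% against 87.7%) to begin with. These shares are thus not like for like, and nothing is read from their differences. The aly list had the fewest peaks of the 6 (29559, against 30062 to 38078), but it covered 8.28 Mb, more than the 7.85 Mb of bam. ATAC-seq had 6 aly samples, 2 of bam and 3 at 72h, and what this did to the lists was not tested.

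The strongest of these 11 peaks by the authors' fold enrichment was at CG30395, on 2R from 21765054 to 21765441, just outside the lower-coordinate end of the gene, with a fold of 7.23 and a -log10 q of 73.6. No other list had a peak at either end of CG30395, although its RNA reached 28.2 CPM at 72h. CG42579 (X, 20527231 to 20527615) had an aly peak with a fold of 3.91 (-log10 q 22.2), and CG30049 (2R, 12355769 to 12356306) one of 3.61 (18.7); neither had one elsewhere. At the serine protease gene CG30187 the aly fold was 3.56 and the 48h fold 2.03. CG30371, another serine protease gene, had a fold of 3.11 in aly and of 3.41 in topi. Several of the rest were weak, such as CG2120 with a fold of 1.73 (-log10 q 3.15).

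Peaks of the other abundant members differed in where the fold was highest. CG12817 had no peak at its ends in bam or the heat shock control, and folds of 5.65 at 48h, 11.1 at 72h, 8.15 in aly and 3.58 in topi. The 72h peak was thus the highest by this measure, while the RNA of CG12817 was highest in aly. Another gene, CG34107, lies 184 bp from CG12817, and its RNA was highest at 72h. Its 72h mean was 139 CPM, above 87.9 CPM at 48h, 83.4 CPM for aly testes and 0.609 CPM for bam testes. Which gene the peak belongs to was not tested. CG33111 had peaks in all 6 lists, with a fold of 9.9 in bam and 6.8 in aly. CG8032 had none in bam and folds of 2.75 at 48h, 2.99 at 72h and 4.28 in aly. Aly also had the highest fold for CG10132 (4.53, against 2.81 to 4.3 in the other lists), CG14431 (3.66, against 2.96 to 3.33) and CG15097 (3.52, against 2.39 to 3.33). For CG17568 aly had the lowest fold (2.95, against 4.62 to 6.19). CG10051 had a fold of 1.9 in aly, 2.22 in bam, 2.23 in the heat shock control and 3.36 in topi. It had no peak at 48h or 72h. CG13842, CG34460 and CG42346 had no peak at their ends in any list. Folds of separate lists are the authors' own values and were not compared by a test.

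The subunits and partners of tMAC and other meiotic arrest genes, a list of 15 that includes aly, comr, topi, can, sa, kmg and Mi-2, were followed beside the members. Kmg and Mi-2 are known to keep genes of other tissues silent in spermatocytes. Of the 15, 12 had their highest mean in aly, but topi alone met both thresholds, with 3.62 and 3.79 CPM in bam, 181 and 177 at 48h, 147 and 148 at 72h, against 1186 and 1190 in aly. The list's summed level was 4612 and 4629 CPM in aly, 1311 and 1328 in bam, 2358 and 2368 at 48h, and 1497 and 1509 at 72h. Against bam, 13 of the 15 were higher and 2 lower, both at 48h and at 72h, in comparisons that share the bam libraries; over all genes tested 44.1% and 46.1% were higher and 41.8% and 43.6% lower. Sa, a testis-specific TAF, was second to topi in aly, with a mean of 595 CPM.

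Markers of other cell types were summed to see which moved with the aly libraries. Spermatogonial markers (12 of 13 found) summed to 622 to 639 CPM in aly against 1874 to 1888 in bam, and spermatid genes (18) to 2290 to 2293 CPM in aly, 29.8 to 31.1 in bam and 12838 to 12934 at 72h. Somatic cyst and hub markers (13) were at 489 to 492 CPM in aly and 992 to 1001 in bam, and sheath muscle markers (13 of 14) at 1243 to 1244 and 2107 to 2118. Accessory gland and duct genes (14) were at 121 to 122 CPM in aly and 2370 to 2431 at 72h. Fat body and hemocyte markers (14) were at 621 to 629 CPM in aly and 2783 to 2812 in bam, neuron and glia markers (11 of 12) at 298 to 305 and 473 to 477, and ejaculatory bulb markers (3) at 78.1 to 82.3 and 142 to 144. None of these sums was highest in aly, but a few genes carry them, and 4 of the 11 neuron and glia markers, 2 of the 14 fat body and hemocyte markers and 1 each of the muscle, spermatogonial and spermatid lists had their highest mean in aly. Of these, brp had 12.8 CPM in aly and 0.932 in bam, and sls 344 and 101; both were picked after their values were seen.

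Gut markers, trachea and cuticle markers and female germline markers summed to more in aly than in the other groups. Gut markers summed to 152 to 157 CPM in aly, 88 to 89 in bam, 50.4 to 54 at 48h and 27.7 to 28.3 at 72h, with 6 of 12 highest in aly. Most of that sum was LManII (145 CPM in aly). Of the 6 gut proteases listed, Jon65Aiii, betaTry and alphaTry had 0 counts in aly and at most 0.364 CPM elsewhere, thetaTry had 0.0472 CPM and Jon25Bi 0.114 CPM in aly, and Jon99Ci had 1.02 CPM in aly and at most 0.106 CPM elsewhere. Trachea and cuticle markers (10 of 11 found) summed to 67.2 to 68.5 CPM in aly and 17.6 to 24.2 elsewhere, with 6 highest in aly and knk past both thresholds. Female germline and follicle cell markers (15) summed to 14.5 to 15.1 CPM in aly and 4.73 to 7.92 elsewhere, with 7 highest in aly and osk past both thresholds, while Cp16, Cp19, Cp36, Vm26Ab and Vm32E had 0 counts in aly. Their part in the levels of the 102 genes was not tested.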

How the data were processed

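MACS2 2.1.1, BWA 0.7.10, STAR (2.5.1b, 2.5.4b), bedtools 2.25.0, deepTools 2.5.4, Trim Galore 0.4.1 and build dm6 are named in the submitters' processing notes, without their steps; no counting tool, annotation or strand setting is stated in these sources. The deposited RNA-seq values are raw counts per FlyBase identifier, and 17253 of 17559 identifiers matched a symbol (the other 306 held 3.07% of counts). The deposited peak lists give each peak's fold enrichment ratio and -log10 q, 1 list per condition; no source used here states how replicates were combined.

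From the counts, CPM were computed on library totals and averaged over the 2 libraries of a group. edgeR 4.0.16 (R 4.3.3; filterByExpr by group, TMM scaling, quasi-likelihood test, all 8 RNA-seq libraries) compared 48h, 72h and bam over 13495 genes, with calls at a Benjamini-Hochberg adjusted p below 0.05. The procedure was tested on simulated data. DESeq2 1.42.0 was an alternative. A fold against 0 counts used a floor of 3 counts over the group. Floors and intervals cover counting error only. Spans and biotypes came from RefSeq (Release 6 plus ISO1 MT). Columns of no known sample numbered 0.

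Members and lists were chosen with earlier results of these data known. Genes named were the 12 highest in aly, the 5 largest and 5 smallest ratios, the 4 largest rises and falls at 72h against bam, neighbours, genes with an aly peak in neither bam nor 72h, and those at the thresholds; genes named for their product or synonym, the Y-linked gene and the exceptions at 72h were chosen after their values were seen. CAGE clusters, nucleosome maps and promoter sequences were not analysed here.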

Additional observations from a re-analysis of the deposited data

How the results depend on the processing

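The number of members was 97 with CPM after TMM scaling (92 shared), 42 with a minimum of 10 CPM, 60 at 8 times the other groups and 100 to 103 without any one library. With only the groups compared in the fit, in which fewer low genes were tested, 19 members were higher and 23 lower at 48h, and 18 and 19 at 72h, against bam. At 2-fold or more, 20 were lower at 48h against bam (3067 of all 13495 genes). At 72h against 48h, 16 were higher and 6 lower at that fold (3890 and 1013 of all genes). At 72h against 48h, library size alone gave 14 higher and 23 lower, and DESeq2's test 7 lower. Counts over all genes for these fits are given in the results above. Leaving out single libraries gave 30 to 36 higher and 16 to 30 lower at 48h against bam, 13 to 25 and 8 to 18 at 72h against 48h, and 30 to 34 and 24 to 28 at 72h against bam. With the replicate number as a block, the counts were 31 and 28, 22 and 13, and 33 and 26. Over all genes they were 5957 and 5654, 6179 and 4644, and 6229 and 5896. Deviations of same-numbered libraries correlated at 0.16 to 0.25 over 7463 genes, with 2 pairs a comparison, and the labels state no pairing. For 72h against bam, CG17568 turned to -0.04 and CG10132 to -0.09 (log2) with library size alone, and CG10132 ran from -0.08 (without replicate 2 of bam) to 0.21 as single libraries were left out; neither passed the test in these fits or as reported. CG17568 passed with DESeq2's size factors and test (0.30 in both). Of 523 gene values tried, 514 kept direction and side of the threshold. Peaks at a -log10 q of 10 or more were at 17 members in bam and 21 in the heat shock control. With the summit in the window the counts were 18 in bam, 18 in the control, 28 at 48h, 22 at 72h, 26 in aly and 25 in topi. With a peak anywhere in the gene, chosen after seeing the data, they were 50 in bam, 50 in the control, 59 at 48h, 55 at 72h, 60 in aly and 70 in topi. Beyond the constructions named, the cause was not tested. The planned CAGE test and promoter motif shares were not run. Depth limits members with under about 1 CPM.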
